A study of Mus musculus with 38 samples.

Results

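The subunits of the mitochondrial respiratory chain were followed across 38 spleen arrays of BXD mice, recombinant inbred strains derived from crosses of C57BL/6 and DBA/2. Members were all probes whose gene symbol begins with Nduf, Uqcr, Sdh, Cox4 to Cox8 or Atp5, with the Ndufaf assembly factors left out. This gave 88 probes for 79 genes, of 34492 probes on the array, and 80 of these probes, for 73 genes, passed the filter on detection together with 17583 probes in all. Each array was hybridised with spleen RNA pooled in equal parts from 2 mice of one strain and one sex, aged 8 to 12 weeks and labelled as control, with no treatment given. The labels give 35 pools as male and 3 as female (BXD18, BXD38 and BXD96), and there is 1 array per strain. P-values therefore measure the spread between strains, in which technical error is included, and the number of arrays limits the precision. All values below are log2 of the background-corrected, quantile-normalized intensity unless given as intensity.

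The respiratory chain sits in the inner mitochondrial membrane. Complex I takes electrons from NADH and complex II from succinate; ubiquinone carries them to complex III, cytochrome c carries them on to complex IV, and complex IV passes them to oxygen. Complexes I, III and IV pump protons as they do so, and complex V, the ATP synthase, lets the protons flow back and makes ATP. Most subunits are encoded in the nucleus, imported and assembled with a small set encoded in mitochondrial DNA, which the symbols above do not cover. In mouse spleen, red cell precursors divide and still hold mitochondria, which they lose as they mature.

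By complex, the rule took 35 probes for 32 genes in complex I, 8 for 8 in complex II, 8 for 7 in complex III, 18 for 17 in complex IV and 19 for 15 in complex V. In complex II, 4 of the 8 genes were Sdhaf1 to Sdhaf4, which share the prefix but encode assembly factors. Ndufa4 is counted in complex I by its symbol, although its protein has since been placed in complex IV. Of the 88 probes, 74 were detected on all 38 arrays. Not kept were the only probes of Ndufb2, Ndufs1, Sdha, Uqcrfs1, Cox7b2 and Cox8c, and the dimmer probes of Atp5j and Uqcrq. Ndufs1 and Uqcrfs1 encode iron-sulfur subunits of complexes I and III, and Sdha the flavoprotein of complex II, so the absence of a signal refers to these probes only. Spleen markers were present: the B cell genes Cd79a and Ms4a1, the T cell gene Cd3e and Spic, a factor of red pulp macrophages, were each detected on 38 arrays.

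Promoter sequences of members, whose genes are spread over many chromosomes, are shown as a description. Their relation to the levels on the arrays was not tested. RefSeq windows of GRCm38.p6, from 250 bases before to 50 bases after the start of a gene, were found for 65 of the 79 member genes. Motifs of factors known to act on respiratory genes were searched on both strands by their letters. These were a palindrome for NRF1, whose letters are the capitals in the Atp5k sequence, CCGGAAGT for GABPA of the ETS family, TCAAGGTCA for ESRRA and AAGATGGC for YY1. The NRF1 motif was in the windows of 6.15% of member genes (4) against 1.07% of all 27025 genes with a window, and the ESRRA motif in 3.08% (2) against 0.466%. The YY1 motif was in 13.8% of member genes (9) against 3.19% of all genes, while the GABPA motif was in 6.15% (4) against 4.31%. At least 1 of the 4 motifs was in 29.2% of member genes (19) and in 8.67% of all genes. The genes with a window were not selected by expression in spleen or matched to the members. A match is a description of letters, not of binding. The 100 bases before the start are shown for 1 gene with each of GABPA (Uqcr11, a small subunit of complex III), NRF1 (Atp5k, the e subunit of the ATP synthase) and ESRRA (Atp5g3, a c subunit of its membrane ring). Uqcrh, the hinge protein of complex III, is added for a GABPA motif on the other strand, and Ndufb10, an accessory subunit of complex I, has none of the 4. Capitals mark the motif, and each sequence is read in the direction of the gene.
Uqcr11 (chr10:80406822-80406921, minus strand): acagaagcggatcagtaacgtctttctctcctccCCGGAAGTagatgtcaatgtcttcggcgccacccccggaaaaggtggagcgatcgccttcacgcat
Uqcrh (chr4:116075071-116075170, minus strand): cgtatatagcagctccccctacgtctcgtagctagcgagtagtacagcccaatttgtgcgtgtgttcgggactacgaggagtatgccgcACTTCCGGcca
Atp5k (chr5:108434400-108434499, minus strand): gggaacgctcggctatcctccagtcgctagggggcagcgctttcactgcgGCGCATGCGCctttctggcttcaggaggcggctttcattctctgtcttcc
Atp5g3 (chr2:73911327-73911426, minus strand): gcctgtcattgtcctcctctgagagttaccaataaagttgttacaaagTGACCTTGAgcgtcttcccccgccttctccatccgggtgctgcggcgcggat
Ndufb10 (chr17:24724424-24724523, minus strand): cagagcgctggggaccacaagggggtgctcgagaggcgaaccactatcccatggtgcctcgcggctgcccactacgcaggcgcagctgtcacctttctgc

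In the orientation of the gene, the YY1 letters were found in 8 member windows, and in 7 of them (87.5%) they lay after the start, 22 to 38 bases from it. Over all genes the same orientation was found in 553 windows, with 49% after the start. The 8 sites, chosen by the motif in capitals, are shown with their neighbouring bases; that of Atp5j, the last, begins at -88, before the start.
Ndufa3 (chr7:3617389-3617406, plus strand): aagaacAAGATGGCcggg
Ndufc1 (chr3:51408922-51408939, minus strand): cggaacAAGATGGCgccg
Atp5j2 (chr5:145191507-145191524, minus strand): gacttcAAGATGGCgtca
Ndufs7 (chr10:80249467-80249484, plus strand): gaggccAAGATGGCggcg
Ndufa9 (chr6:126849104-126849121, minus strand): tgggagAAGATGGCggcc
Ndufs4 (chr13:114388048-114388065, minus strand): tacaggAAGATGGCggcg
Ndufb8 (chr19:44555393-44555410, minus strand): aaggtgAAGATGGCtgcc
Atp5j (chr16:84835053-84835070, minus strand): gtaggaAAGATGGCggag

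One array stood apart from all others. On BXD12 most respiratory chain genes were lower than on any of the other 37 arrays, mainly those of complexes I and IV, while Atp5b and Uqcrc1 were higher. The mean deviation of the 73 member genes from their means was -0.77 on BXD12. On the other arrays it ran from -0.19 (BXD98) to 0.19 (BXD70), with an SD of 0.094. BXD12 was the 1 array beyond 1.5 interquartile ranges from the quartiles (-0.035 and 0.081). It was the lowest array in every complex, at -0.92 in complex I, -0.52 in complex II, -0.51 in complex III, -0.86 in complex IV and -0.63 in complex V. On BXD12, 49 of the 73 members were below all other arrays, a share of 67.1%, whereas 7.89% of all 11167 genes were. These shares are not matched for gene length, which is described further below. The counts refer to normalized values. In intensity some of the 49, such as Ndufa1, were also lowest on BXD12, and others, such as Ndufs7, Ndufs8 and Atp5a1, were not. Each gene was counted by its brightest probe, and further probes of the same genes often differed. The dimmer probe of Cox7c was also lowest on BXD12, but those of Atp5a1, Atp5l and Atp5mpl were lowest on other arrays. None of the dimmer probes of Ndufab1 was lowest on BXD12, and its dimmest was highest there. Above all other arrays were 2 members (2.74%), Atp5b and Uqcrc1, and 6.76% of all genes. The median difference from the mean of the other arrays was -0.86 over the members and -0.02 over all genes, and 65 members were below that mean. BXD12 was singled out by this mean, so these values describe 1 pool without a test.

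**Figure D1:**
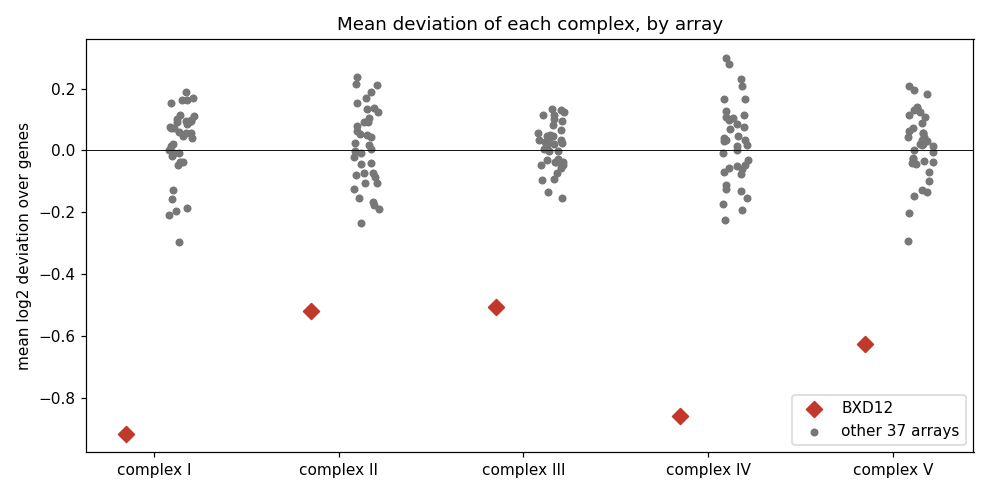
Mean log2 deviation over the genes of each complex (vertical axis) for the 5 complexes (horizontal axis), with BXD12 as a red diamond and each of the other 37 arrays as a grey point. The diamond lies below every grey point in all 5 complexes, from -0.92 in complex I to -0.51 in complex III.

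In complex I, 23 of 30 genes were below all other arrays on BXD12. Ndufa1, an accessory subunit needed for assembly of the membrane arm, had 11.29 on BXD12 and 12.77 to 13.28 on the other arrays (median 13.03). Ndufa5, an accessory subunit of the matrix arm, had 9.49 on BXD12 against 10.66 to 11.58. Ndufa2, another of the matrix arm, had 11.06 against 12.31 to 12.90. The gap between BXD12 and the nearest other array was thus wider than the whole range of the other arrays for Ndufa1 and Ndufa5, and for Ndufa2 as well. Ndufb3 of the membrane arm had 9.85 on BXD12, below 11.06 to 11.56. The core subunits of the matrix arm differed among themselves. Ndufs7 and Ndufs8 were below all other arrays (differences -0.58 and -0.38), Ndufs3 and Ndufv2 were within their range (-0.16 and -0.30), and Ndufv1, which binds NADH, was 0.33 above their mean. Ndufa9 and Ndufa10 were 0.14 and 0.10 above it. In intensity Ndufs7 and Ndufs8 were not lowest on BXD12, with 2320.0 and 3252.2 there and 2007.1 and 2679.6 on their lowest array.

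In complex II, 3 of 7 genes were below all other arrays, and these were the assembly factors Sdhaf1, Sdhaf3 and Sdhaf4, not subunits. The iron-sulfur subunit Sdhb (-0.17) and the membrane anchors Sdhc (-0.45) and Sdhd (-0.44) stayed within the range of the other arrays. In complex III, 3 of 6 genes were below them. Uqcr11 had 10.37 on BXD12, against 11.53 to 12.37, Uqcrb had 8.87 against 9.63 to 10.53, and Uqcrh had 13.29 against 13.62 to 14.33. The core proteins Uqcrc1 and Uqcrc2, the largest subunits of this complex, went the other way. Uqcrc1 had 12.92 on BXD12, above all other arrays (11.94 to 12.66), and Uqcrc2 had 13.10, at the upper end of their range (12.58 to 13.10). In intensity Uqcrc1 was not highest on BXD12, with 7101.3 there and 7634.8 on the highest array.

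In complex IV, 12 of 15 genes were below all other arrays, and all 15 were below the mean. Cox6a2, the heart and muscle form of subunit VIa, showed the widest drop of the genes outside Ndufb10, with 7.19 on BXD12 against 8.69 to 10.30 (intensity 234.6 against at least 400.2). Cox7a2 had 7.93 against 8.88 to 9.63, and Cox6b1 had 12.00 against 12.70 to 13.29. The 3 within the range of the others were Cox7b, Cox8b and Cox6b2. In complex V, 8 of 15 genes were below all other arrays. Among them Atp5e, a subunit of the central stalk, had 6.07 against 6.73 to 8.30, and Atp5l, the g subunit of the membrane part, had 12.65 against 13.55 to 14.22. The subunits of the catalytic head and of the central stalk differed among themselves. In the stalk, Atp5c1 (-0.12) and Atp5d (-0.18) were within the range of the other arrays. In the head, Atp5a1, the alpha subunit, was below all other arrays by its brighter probe (-0.69). In intensity this probe was not lowest on BXD12, with 1041.4 there and 800.7 on the lowest array. Atp5b, the catalytic beta subunit, had 15.24 on BXD12, above all other arrays (12.22 to 15.14). In intensity Atp5b was not highest on BXD12, with 30655.7 there and 40233 on BXD14.

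**Figure D2:**
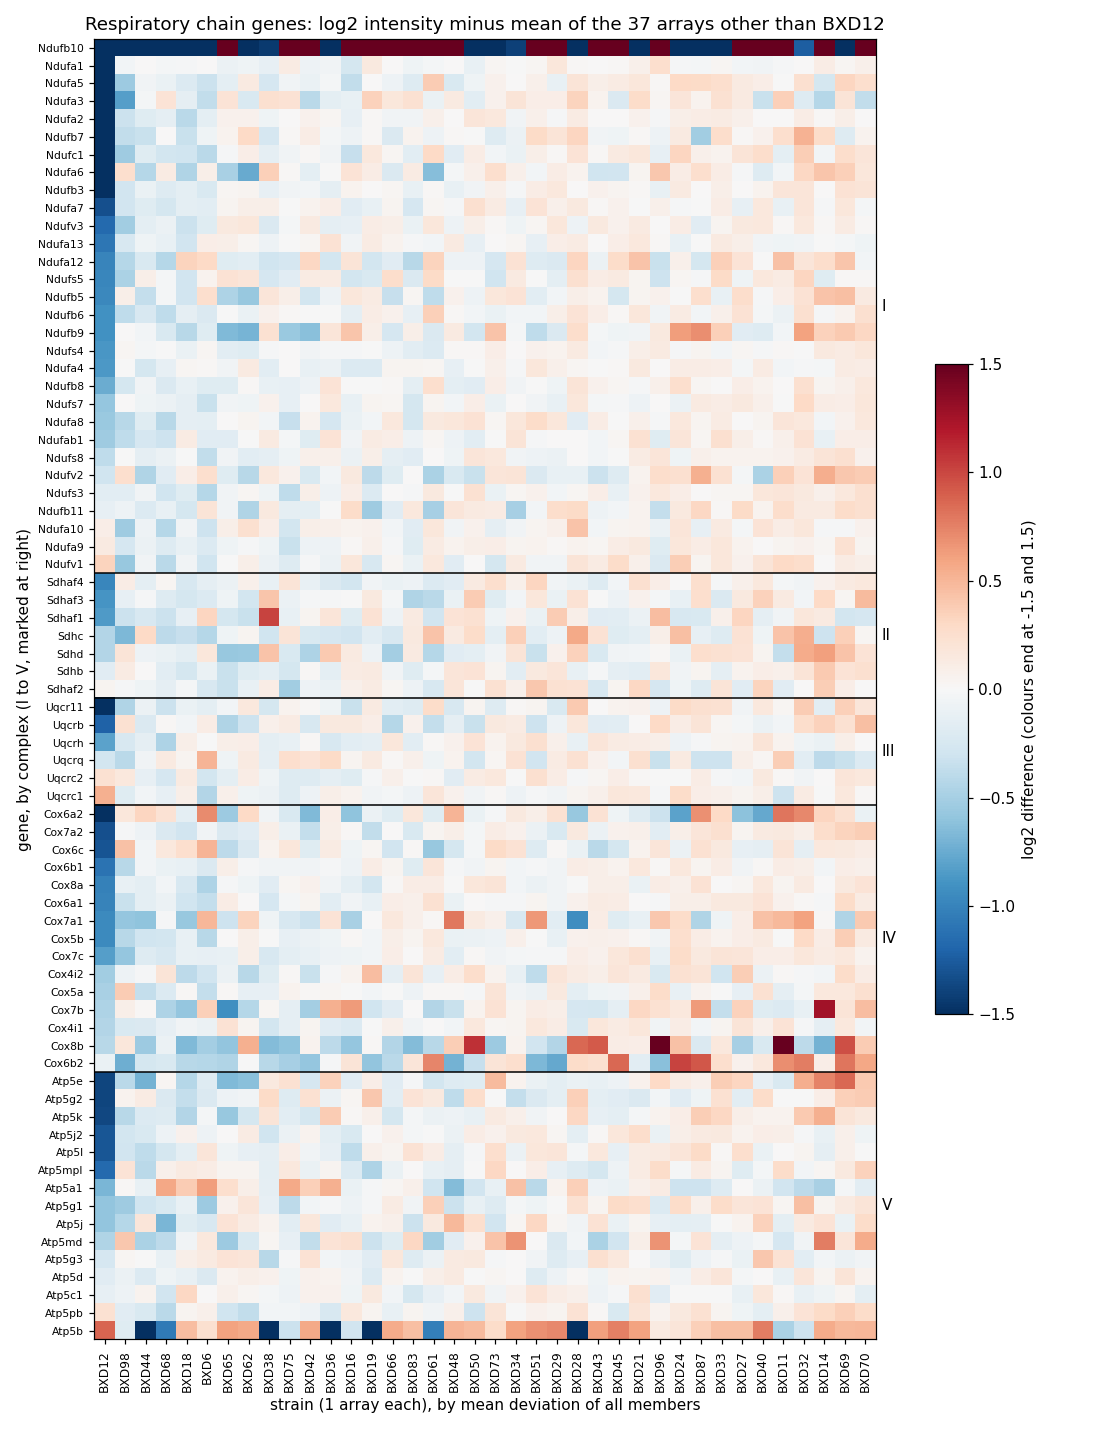
Log2 intensity of each of 73 genes (rows, grouped by complex and ordered by their difference on BXD12) minus the mean of the 37 arrays other than BXD12, for each array (columns, ordered by the mean deviation of all members). The first column, BXD12, is blue in most rows, while Ndufb10 alternates between both ends of the colour scale across the columns and Atp5b is dark blue in a few of them.

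Other gene lists on BXD12 are given as counts, and their difference from the members was not tested. Of the mitochondrial ribosomal proteins, 27 of 70 were below all other arrays (38.6%, median difference -0.33), and of the cytosolic ribosomal proteins 20 of 54 (37%, median -0.24). Of the assembly factors outside the members, 11 of 25 were (median -0.03). Of 15 genes of the tricarboxylic acid cycle, none was, and 3 were above all other arrays (median 0.18). None of 10 genes of electron carriers was below all others either (median 0.10), and 1 of 13 genes of mitochondrial biogenesis was (median 0.08). Of 19 genes of protein import into mitochondria, 7 were below all other arrays (36.8%) and 2 above (10.5%), with a median of -0.10. BXD12 also differed in cell type markers. All 24 erythroid genes were above the mean of the other arrays (median 1.501), 7 of them above every other array. All 9 T cell genes were below it (median -0.62), 5 of them below every other array, and 2 of 8 B cell genes were below it (median 0.12). In pooled spleen RNA, fewer cells of a type and less RNA per cell cannot be told apart.

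Depth of signal on BXD12 was ordinary, with 14859 probes detected where arrays ran from 13791 to 15732. Its deviations were related to the length of the gene on the genome more than on any other array (Spearman's rho 0.212 across 11152 genes, against 0.174 on BXD98, the next lowest array for the members). Among members with a span of up to 7177 bases, their median, 26 of 37 were below all other arrays (70.3%), and among other genes of such a span 16.7% were. Among members with a longer span it was 23 of 36 (63.9%), and among other genes 5.02%. The median difference was -0.955 for members of the shorter span and -0.639 for those of the longer span. For other genes it was -0.204 and 0.027. Across the 73 members, Spearman's rho between the difference and the span was 0.334. The median span of other genes was 21309 bases, so members and all genes are not matched for length. The part of gene length, of RNA quality or of the erythroid and T cell content in the drop of the members was not tested. Members with at least 1 promoter motif (12 of 19 below all other arrays, median -0.80) and those with none (28 of 42, median -0.87) were not tested against each other.

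Coexpression was described by Pearson's r between genes over arrays, with no test, since all values of an array share its library. Over all 38 arrays the median r of 2628 pairs of members was 0.32, and that of all pairs of the 11167 genes was 0.01. Without BXD12 it was 0.179 over 37 arrays, against 0.011 for all pairs, and 73.7% of the pairs of members were positive. Leaving out 1 array thus lowered the median r of the members by more than 1.5 times with quantile normalization. With arrays scaled to one median in its place, the members had 0.583 and all pairs of genes 0.239, and without BXD12 the members had 0.583 and all pairs 0.249. The size of r and the weight of BXD12 in it therefore depended on the scaling. With BXD12 left out, genes of complex I were the most alike (median r 0.256 over 435 pairs, 0.462 with BXD12). Complex II, counted with the assembly factors Sdhaf1 to Sdhaf4, had 0.227 (0.224 with BXD12), complex IV 0.173 (0.357) and complex V 0.095 (0.187). Complex III had -0.01 over its 15 pairs (0.017), close to the value of all pairs of genes. Between complexes I and IV the median was 0.216 over 450 pairs, higher than within complex IV. With the pancreas and erythroid scores described below regressed out as well, the median over members was 0.143, with 0.228 in complex I and 0.045 in complex V. Mitochondrial ribosomal proteins had 0.3 without BXD12, cytosolic ribosomal proteins 0.087, and genes of the tricarboxylic acid cycle 0.025.

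Within each complex some genes followed the others and some did not. Without BXD12, r with the mean of all other members was highest for Ndufb3 in complex I (0.758) and lowest for Ndufb10 (0.017). In complex II it was highest for Sdhb (0.48) and lowest for the assembly factor Sdhaf1 (0.069). In complex III it was highest for Uqcr11 (0.544) and lowest for Uqcrq (-0.234). In complex IV Cox5b, which binds zinc on the matrix side, had 0.759 and Cox6c -0.166. In complex V Atp5k had 0.642, and Atp5a1 had -0.52, the lowest of all members. The genes outside the members most like their mean without BXD12 were Lsm3 (0.872), Naa38 (0.803), Mrps11 (0.775), Pdcd5 (0.755), Ssna1 (0.755), Fbxw2 (0.738), Dpy30 (0.732), Uxt (0.73), Psmb3 (0.714) and Cpped1 (0.713). Naa38 (0.927) and Pdcd5 (0.915) were also the 2 most alike with BXD12 included.

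Genes with several probes did not always give 1 answer. The 2 probes of Cox7c followed each other (r = 0.821, n = 38), but those of Atp5a1 (-0.065), Atp5mpl (0.076) and Atp5l (0.194) did not. Of the 4 probes of Ndufab1, the mitochondrial acyl carrier protein, the least alike pair had 0.083 and the most alike 0.908. Values of Atp5a1, Atp5mpl and Atp5l therefore hold for 1 probe each, the brighter unless stated. The median SD of members without BXD12 was 0.191, against 0.267 over all genes, which were not matched to the members in intensity. Among members the SD ran from 0.088 (Ndufa1, Ndufs4) to 1.94 (Ndufb10).

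Ndufb10 was at 2 levels. It encodes an accessory subunit of the membrane arm of complex I and lies at chr17:24722060-24724423 (GRCm38.p6). On 19 arrays its level was 6.17 to 7.39 (median 6.53), and on the other 19 it was 10.29 to 10.76 (median 10.45). No array lay between 7.39 and 10.29, a gap of 2.90 that made up 0.631 of its range. In intensity the lower arrays had 132.1 to 232.1 and the higher arrays 1037.7 to 2503.8. The probe was detected on all 38 arrays. No other member was like this: the next largest gaps were those of Atp5b (0.183 of its range) and Cox6b2 (0.168). BXD12 was among the lower arrays, so its low value of 6.23 does not set it apart from them.

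**Figure D3:**
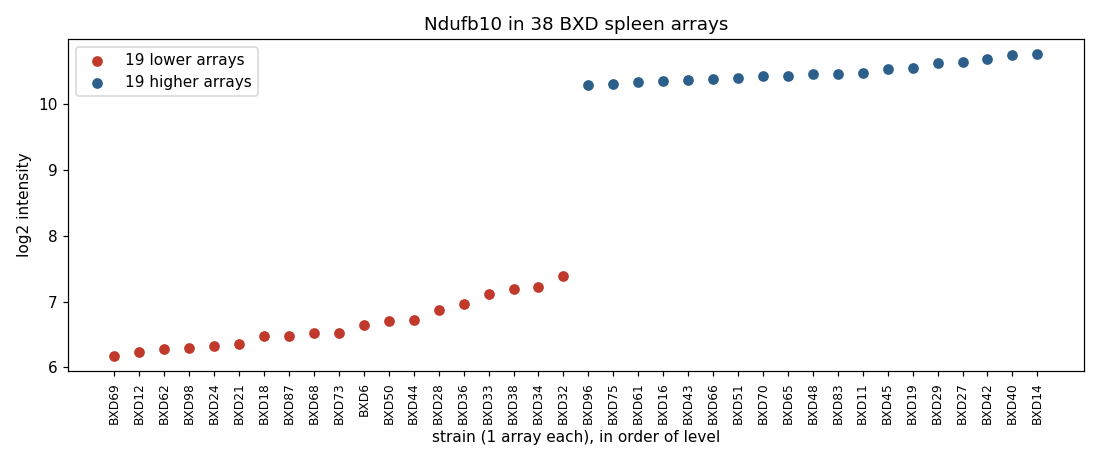
Log2 intensity of Ndufb10 (vertical axis) on each of 38 arrays (horizontal axis, in order of level). Red points are the 19 lower arrays, from 6.17 to 7.39, and blue points the 19 higher arrays, from 10.29 to 10.76.

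The same 19 arrays were the 19 lowest for 3 other genes of the 11167, all on chromosome 17. These genes were chosen after their values were seen. Telo2, a factor for the stability of PI3K-related kinases, had 4.90 to 6.44 on these arrays and 8.19 to 9.15 on the others. The ciliary transport gene Ift140 had 10.39 to 11.05, against 11.11 to 12.21, and Amdhd2, an enzyme of amino sugar breakdown, had 7.57 to 8.27, against 8.32 to 8.68. Telo2 starts 377.5 kb above the start of Ndufb10, Ift140 294 kb above it and Amdhd2 at -566.2 kb from it. Of the 55 other genes measured within 1 Mb, Spsb3, Gnptg and Tedc2 shared 18 of the 19 arrays among their lowest. Gfer and Meiob had 18 of the 19 among their highest, the opposite way. H2-Ab1, an MHC class II gene of the same chromosome, shared 15. Strain genotypes at this locus were not used here, and with 1 probe the level of the transcript and its binding to the probe cannot be told apart.

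Few members were related to pancreatic genes, and Atp5b had the steepest slope of those called. Pancreatic enzyme transcripts varied widely between these spleen samples, and a score was taken as the mean log2 level of 22 acinar genes such as Cela1, Ctrb1 and Cpa1. It ran from 5.48 (BXD96) over a median of 9.25 to 15.29 (BXD28). In a fit of every probe on this score, limma called 504 of 17583 probes at an adjusted p under 0.05 (2.87%). Of the members 1 of 80 probes was called (1.25%), that of Atp5b. An unadjusted p under 0.05 was found for 7 of the 80 member probes and for 2528 of all 17583 probes. The median slope was -0.021 log2 per SD of the score over the members and -0.013 over all probes.

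Atp5b (probe ILMN_2598972, chr10:128083307-128090388) had a lowest value of 12.22, a median of 14.82 and a highest of 15.24. The 5 arrays with the lowest Atp5b, BXD19, BXD28, BXD44, BXD38 and BXD36 (12.22 to 12.76), were the 5 with the highest pancreas score (14.78 to 15.29). Its slope was -0.64 ± 0.09 per SD of the score (SE, n = 38, limma adjusted p = 2.92e-06), and -0.66 without BXD12 (adjusted p = 1.18e-06). The relation was not a straight line. On the 20 arrays with a score of 9 or more it ran from 12.22 to 15.24 with a median of 14.07, while on the 18 arrays with a lower score it ran from 14.50 to 15.13 with a median of 14.90. Within those 18 the slope was 0.055 (limma adjusted p = 0.887). In intensity Atp5b fell to 3441.1 on BXD19, whereas it was at least 21186.6 on every array with a score under 9. No further member of complex V was called.

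Uqcrh was called on the pancreas score without BXD12, with a slope of -0.09 ± 0.02 (SE, n = 37, limma adjusted p = 0.0138). Without that array 558 probes were called (3.17%), 2 of them members. An unadjusted p under 0.05 was found for 11 of 80 member probes and for 2642 of all 17583 probes. Uqcrh was also called with detection p-values as deposited (limma adjusted p = 0.0496). Uqcrh had a median of 13.99 on the 20 arrays with a score of 9 or more and of 14.16 on the 18 arrays below it, and the groups of arrays overlapped (13.29 to 14.27 and 13.92 to 14.33).

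**Figure D4:**
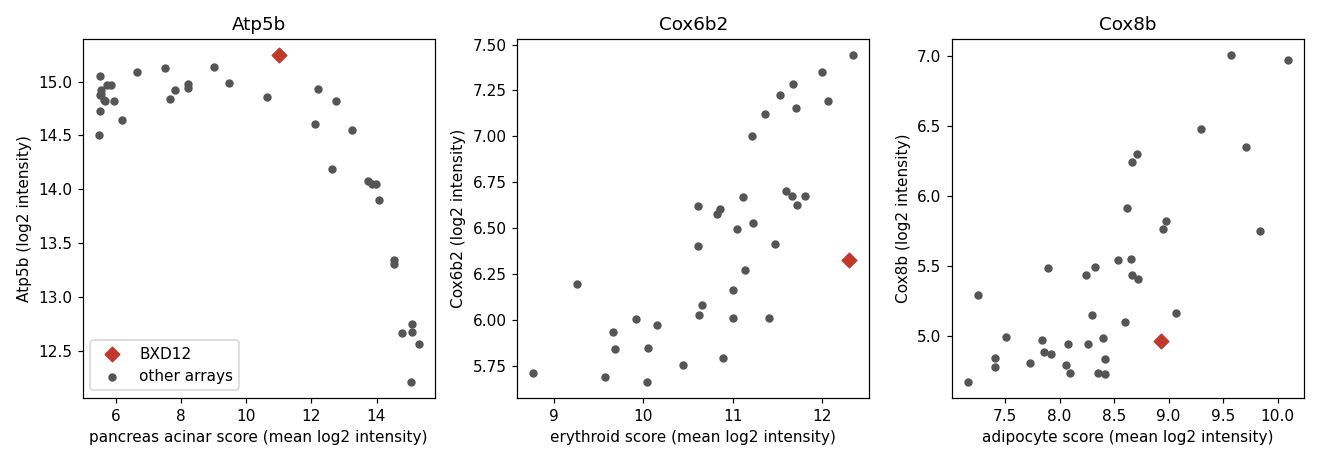
Log2 intensity (vertical axes) of Atp5b against the pancreas acinar score, of Cox6b2 against the erythroid score and of Cox8b against the adipocyte score (horizontal axes, mean log2 intensity of each list), 1 point per array with BXD12 as a red diamond. Atp5b is flat at about its median of 14.82 up to the middle of the score and lies as low as 12.22 at its top, while Cox6b2 and Cox8b are higher where their score is higher.

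More members were called on the erythroid score than on the pancreas score. Only without BXD12 was their share well above that of all probes. The erythroid score, the mean over 24 genes of red cell precursors such as Gata1, Klf1, Alas2 and Slc4a1, ran from 8.77 (BXD48) over a median of 11.03 to 12.35 (BXD24), with 12.30 on BXD12. Over all 38 arrays limma called 2903 of 17583 probes (16.5%), 1562 of them positive (8.88%). Of the members, 9 of 80 probes for 8 genes were called (11.2%), all positive. Without BXD12, where the score is among the highest and most members are lowest, 23 of 80 member probes for 20 genes were called (28.8%), again all positive. Of all probes 16.2% were called then, and 8.89% were called positive. The median slope over members was then 0.044 log2 per SD and that over all probes -0.016, and 65 of the 80 member slopes were positive, against 42.7% of all slopes. The values on 37 arrays follow.

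In complex I, 11 of 30 genes were called by their brightest probe. Ndufv1, the NADH-binding subunit, had a lowest value of 12.02, a median of 12.61 and a highest of 12.96 over all arrays, and a slope of 0.16 ± 0.02 (SE, n = 37, limma adjusted p = 7.74e-07). Ndufb9 had 0.17 ± 0.05 (0.0266), Ndufa12 0.14 ± 0.04 (0.0148) and Ndufa5 0.12 ± 0.03 (0.00288). All 4 probes of Ndufab1 were called, with slopes of 0.084 to 0.14. The others were Ndufa10, Ndufa9, Ndufs3, Ndufb8, Ndufb3 and Ndufc1, at 0.062 to 0.098. In complex II the anchor Sdhc was called (0.13 ± 0.05, adjusted p = 0.0475), and in complex III Uqcr11 (0.12 ± 0.03, adjusted p = 0.00288) and the core protein Uqcrc1 (0.070 ± 0.022, adjusted p = 0.0242).

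In complex IV, 5 of 15 genes were called. Cox6b2, known in mammals as the testis form of subunit VIb, had the steepest slope of any member, 0.42 ± 0.05 (SE, n = 37, limma adjusted p = 9.98e-08), and 0.40 ± 0.06 with BXD12. It was dim, at 5.66 to 7.44 with a median of 6.41 (intensity 242.7 at most), and detected on 37 arrays. The 8 arrays above its widest gap had erythroid scores of 11.21 to 12.35, in the upper part of the range. Its general form Cox6b1 had a slope of 0.056 ± 0.020 (adjusted p = 0.0483). Cox5b (0.12 ± 0.02), Cox7c (0.11 ± 0.02) and Cox7a2 (0.086 ± 0.028) were the others. In complex V, 1 of 15 genes was called, Atp5g1, a gene for the c subunit, at 0.16 ± 0.03 (limma adjusted p = 5.3e-05). The other genes for that subunit, Atp5g2 and Atp5g3, were not called.

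**Figure D5:**
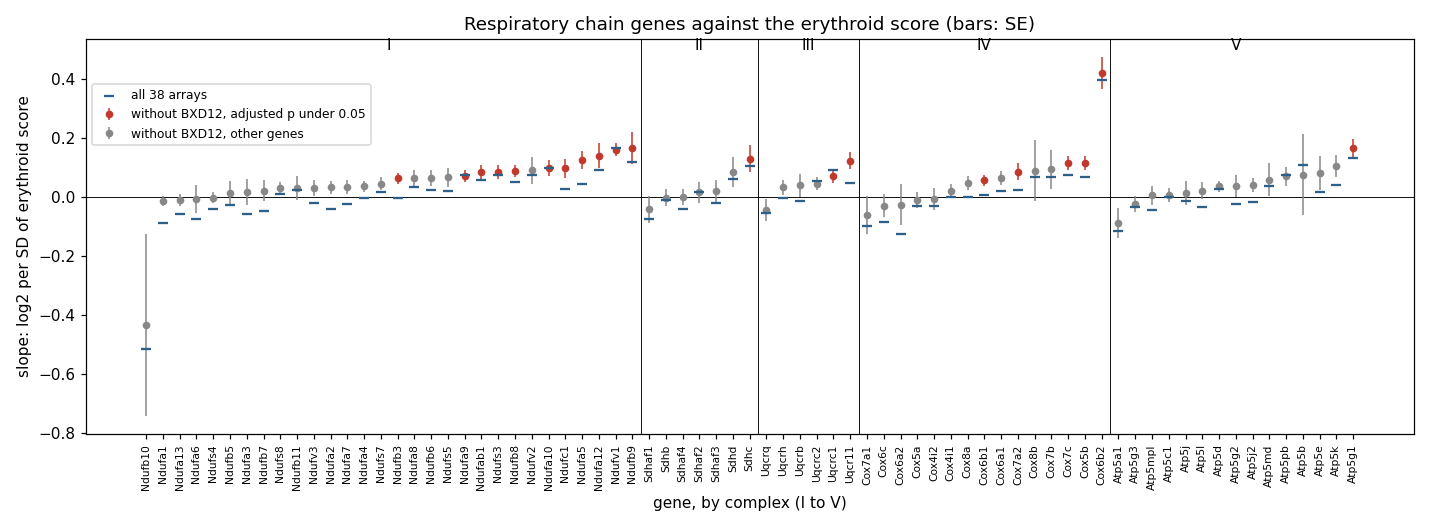
Slope of each of 73 genes on the erythroid score in log2 per SD (vertical axis), by complex (horizontal axis). Circles with SE bars are fits without BXD12, red where the adjusted p was under 0.05 and grey otherwise, and blue dashes are fits over all 38 arrays, most of which lie below their circle. Cox6b2 stands highest, at 0.42, and Ndufb10 has the widest error.

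Related lists were counted in the same fit without BXD12. Of 70 mitochondrial ribosomal proteins, 18 were called positive, of 25 assembly factors 3, of 15 genes of the tricarboxylic acid cycle 2, of 10 electron carrier genes 3, of 13 genes of mitochondrial biogenesis 1, of 54 cytosolic ribosomal proteins 3, and none of these negative. Of 19 genes of mitochondrial protein import, 4 were called positive and 1 negative. Over all 11167 genes 1172 were called positive and 979 negative. The erythroid score itself moved with other scores. It followed a score of 15 cell cycle genes closely (r = 0.939, permutation p = 1e-05, the smallest value possible with this number of permutations, and adjusted p = 0.00013 over 26 relations; rho = 0.958, adjusted p = 0.00026; r = 0.946 without BXD48 and BXD68). It went against the B cell score (r = -0.627, permutation p = 1e-05, adjusted p = 0.00013; rho = -0.67, permutation p = 2e-05, adjusted p = 0.00026; r = -0.601 without the same arrays). With the cell cycle score as a covariate, 0 of 80 member probes were called, 0 had an unadjusted p under 0.05 and 69 of 17583 probes were called. The part of red cell precursors and that of dividing cells in these slopes cannot be told apart. On the 18 arrays with a pancreas score under 9, 1 member probe was called on the erythroid score by limma, and 13 had an unadjusted p under 0.05. The share over all probes on these arrays is not set beside these counts, so they show nothing particular to the members.

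Isoforms of complex IV that are known from other tissues were read by their own probes, and no level is set against that of another probe. The general forms Cox4i1 (13.94 to 14.60), Cox6a1 (12.21 to 13.48), Cox6b1 (12.00 to 13.29), Cox7a2 (7.93 to 9.63) and Cox8a (12.06 to 13.29) were detected on 38 arrays each, and their r with the other members without BXD12 was 0.452 to 0.671. Cox4i2, the lung form, was detected on 38 arrays (5.70 to 6.69; r = 0.265) and Cox7a1, the muscle form, on 19 (4.79 to 6.54; r = 0.301). Cox6a2, the muscle form of subunit VIa, was detected on 38 (7.19 to 10.30) and did not follow the members without BXD12 (r = -0.057). Cox8b, the form of muscle and brown fat, was detected on 11 arrays, and Cox8c, the testis form, on none. The c subunit genes Atp5g1, Atp5g2 and Atp5g3 encode the same mature protein, and their r with the other members was 0.611, 0.195 and -0.063.

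Because of these forms, the members were also set against fat and muscle genes. The adipocyte score, the mean over 6 genes such as Adipoq and Lep, ran from 7.16 to 10.09. Limma called 23 of 17583 probes on it (0.131%), and 1 of 80 member probes, that of Cox8b. Cox8b had a lowest value of 4.67, a median of 5.15 and a highest of 7.01, and its 2 highest arrays, BXD11 and BXD96, had adipocyte scores of 9.57 and 10.09. Its slope was 0.48 ± 0.07 (SE, n = 38, limma adjusted p = 4.85e-05), and 0.49 ± 0.07 without BXD12. The muscle score, the mean over 6 dim genes such as Tnnt3 and Pvalb, had its lowest value, 6.64, on BXD12, against 7.59 at most. On it 216 probes were called (1.23%), and 6 of 80 member probes (7.5%), all positive, where 0.904% of all probes were: Cox6a2 (0.37 ± 0.07), Ndufa1 (0.20 ± 0.04), Cox6c (0.17 ± 0.04), Atp5l (0.16 ± 0.04), Atp5j2 (0.15 ± 0.03) and Ndufa13 (0.12 ± 0.03). Without BXD12, 0 members were called by limma and 5 probes were called in all (0.0284%), so these calls rested on that array. An unadjusted p under 0.05 was then found for 8 member probes and for 1987 of all 17583 probes.

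The series set expression against flow cytometry of lymphocytes, and 34 of the strains had both. The traits, each a natural log, are LN T:B (T over B cells), LN CD4:CD8 (CD4+ over CD8+ T cells) and LN MHC Med, a median signal of MHC class II on B cells. No member was called on any of them by limma. Over all 17583 probes, of which 80 were members, an unadjusted p under 0.05 was found for 2209 on LN T:B. It was found for 1832 on LN CD4:CD8 and for 983 on LN MHC Med. On LN T:B 26 of 17583 probes were called (0.148%), and 6 member probes had an unadjusted p under 0.05. The smallest p was that of Cox5a, a subunit on the matrix side of complex IV, at -0.08 ± 0.03 (SE, n = 34, limma adjusted p = 0.245), before Uqcrq (0.10 ± 0.04, adjusted p = 0.248) and Sdhb (-0.06 ± 0.03, adjusted p = 0.359). On LN CD4:CD8 0 probes were called (0%), 5 member probes had an unadjusted p under 0.05, and Atp5j (0.14 ± 0.04, adjusted p = 0.436), a dimmer probe of Ndufab1 (0.10 ± 0.04, adjusted p = 0.438; 0.033 ± 0.033 and 0.721 by the brightest) and Sdhc (0.12 ± 0.05, adjusted p = 0.467) came first. On LN MHC Med 41 probes were called (0.233%), and 2 member probes had an unadjusted p under 0.05. Ndufb10 came first, with a slope of -0.997 ± 0.286 (SE, n = 34, unadjusted p = 0.00133, limma adjusted p = 0.316), before Uqcrq (0.10 ± 0.04, adjusted p = 0.732) and the dimmer probe of Atp5a1 (0.11 ± 0.07, adjusted p = 0.86). The brighter probe of Atp5a1 had 0.062 ± 0.056 (adjusted p = 0.914).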

How the data were processed

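Illumina Sentrix Mouse-6 v1.1 arrays of 1 colour were hybridised with spleen RNA, 1 array for each of 38 strains, per the labels. The authors deposited an intensity and a detection p-value for every probe on every array, before normalization, per the file headers. A second table, deposited by the authors, holds processed values that look like log2. The submitters' processing notes name lumi, with no step. The transformation of that table is not given in the sources used here, and it served as an alternative. The traits are natural log values per strain, per the labels and the deposited phenotype table.

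Deposited detection p-values of some probes did not follow intensity (18836 of 231278 values above 500 had 0.01 or more). Each was replaced by the running median of the 201 probes nearest to it in order of intensity. Of the 80 member probes kept, 5 (Cox5b, Ndufc1, Sdhb, Sdhc, Atp5md) were kept only in this way. In R 4.3.3, limma 3.58.1 corrected the background and normalized by quantiles (neqc, offset 16). Probes with a smoothed p under 0.01 on at least 3 arrays were kept. Median intensity per array was 85.0 to 121.6. By GEO's platform annotation 20256 probes had 1 symbol, 9 had several and 14227 had none. The identifiers of 20213 probes were found in the RefSeq table of GRCm38.p6, from which coordinates were taken. Each gene was represented by its probe of highest mean. Each score or trait was divided by its SD and log2 intensity was fitted on it by lmFit and eBayes of limma, and p-values were adjusted by Benjamini-Hochberg over all probes kept. The fit was tested on simulated data. Motifs were searched with Python 3.11.15 and figures drawn with matplotlib 3.10.9.

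The members and lists were chosen with earlier results of these data known. All members could be named; those named are members called (at most 10 by slope in each direction, otherwise the 3 of smallest p), the highest and lowest r in each complex, the least alike probes of a gene, fixed isoform pairs, the 3 widest gaps, and the 10 other genes most like the mean of members. Further members were named to describe BXD12. Alternatives concerned background, normalization, filters, the authors' table, arrays left out and covariates.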

Additional observations from a re-analysis of the deposited data

How the results depend on the processing

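The member mean on BXD12 was -0.63 to -0.79 under 7 alternatives; leaving it out gives no value for it. The median r of members, 0.32, was 0.2936 with detection p-values as deposited, 0.252 with no filter, 0.3596 with probes detected on every array, 0.2961 with all probes, 0.1792 without BXD12, 0.5833 with arrays scaled to one median and 0.5826 with that scaling and without BXD12, chosen after seeing the data. On the pancreas score 2 members were called with detection p-values as deposited and without BXD12, and 0 on arrays with a score under 9, an alternative chosen after seeing the data (22 probes called in all, 3 members with an unadjusted p under 0.05); there the slope of Atp5b was 0.055. It was 1, Atp5b, under the other 10 alternatives. On the erythroid score 9 member probes were called, 23 without BXD12, 1 on arrays with a pancreas score under 9, 0 with the cell cycle score as covariate and 0 with that covariate and without BXD12, the last chosen after seeing the data (0 members with an unadjusted p under 0.05 in both). With the covariate the slopes of 2 probes of Ndufab1 were -0.11 and -0.084, of Ndufa10 -0.019, of Uqcrc1 -0.014 and of Ndufa9 -0.065; without BXD12 as well they were -0.11, -0.073, -0.018, -0.018 and -0.064. On arrays with a pancreas score under 9 Ndufa10 had -0.018 and Ndufs3 -0.0024. On the adipocyte score 0 members were called among probes detected on every array, since Cox8b is not one of them (limma, 3 with an unadjusted p under 0.05). Calls on the muscle score were the least stable: 6, but 13 with detection p-values as deposited, 16 without background correction, 61 with one median, 18 in the authors' table, 12 with probes detected on every array, 3 with the pancreas and erythroid scores as covariates, and 0 without BXD12 and without the 2 arrays farthest from the median score. No member was called on a trait under any of 11 alternatives each. Over all probes the calls ran from 22 to 708 on the pancreas score (504), from 69 to 3155 on the erythroid score (2903), from 4 to 34 on the adipocyte score (23), from 2 to 6311 on the muscle score (216), from 0 to 51 on LN T:B (26) and from 26 to 43 on LN MHC Med (41). The cause of these changes was not tested. Most member counts above are not set beside the count over all probes of the same setting, so they describe the settings and not the members. No paired analysis was possible because each strain has 1 array. Limits are 1 pool per strain, dim probes near background (Cox8b, Cox7a1, Atp5md), and 1 probe for most genes.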
